A study of Mus musculus with 16 samples.

Results

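The genes that make cholesterol, sense it and move it were followed through oxygen-glucose deprivation (OGD), an in vitro model of ischemia, in mouse primary cortical neurons. The 31 genes, of 53857 in the table, were found by gene symbol: 18 enzymes of synthesis, 5 genes of SREBP sensing, 4 genes of the LXR and efflux arm and 4 genes of carriage, esterification, turnover and lipoprotein lipolysis. RNA-seq was available for 16 wild-type cultures, 4 in each of 4 groups. Cortical cells of embryonic day 15 mice received vehicle or 10 µM tianeptine (TIA), an antidepressant, on day 8 in vitro. After 24 h of this pretreatment they underwent a sham procedure (CONTROL-VEH and CONTROL-TIA) or OGD for 3 h with 6 h of reoxygenation (OGD-VEH and OGD-TIA). The study's methods call the cultures of a group biological replicates, and the labels tie none to an animal, litter or preparation, so the p-values measure the spread between these cultures.

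Cholesterol is built from acetyl-CoA through mevalonate to squalene, and squalene is closed to lanosterol and trimmed to cholesterol. SREBP transcription factors, escorted by SCAP and held back by the INSIG proteins, drive the synthesis genes when sterol in the endoplasmic reticulum is low. LXR receptors, activated by oxysterols, drive the export pumps ABCA1 and ABCG1. In the adult brain cholesterol is made locally, in large part by glia, whereas young neurons also make their own.

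The promoters of 4 enzyme genes and of Abca1 are shown as examples. These enzymes were 4 of the 16 downregulated over both arms, and Abca1 was upregulated, a call that 10 of 27 alternatives lost. All 4 hold CCAAT, unlike Acat2, which was also downregulated over both arms and is not shown. RefSeq windows (GRCm38.p6) matched 25 of the 31 genes. None was matched for Fdps, Fdft1, Sqle, Abcg1, Stard4 and Lpl. Each sequence is the 250 bases before the start, 5′ to 3′ on the gene's strand, and capitals mark CCAAT on either strand (CCAAT or ATTGG) and, in Hmgcs1, TCACCCCAC, a match to the short sterol regulatory element TCACNCCAC. They lie at chr13:119690101-119690350 (plus strand), chr5:114444019-114444268 (plus), chr8:122443423-122443672 (minus), chrX:8193513-8193762 (minus) and chr4:53159896-53160145 (minus).
Hmgcs1: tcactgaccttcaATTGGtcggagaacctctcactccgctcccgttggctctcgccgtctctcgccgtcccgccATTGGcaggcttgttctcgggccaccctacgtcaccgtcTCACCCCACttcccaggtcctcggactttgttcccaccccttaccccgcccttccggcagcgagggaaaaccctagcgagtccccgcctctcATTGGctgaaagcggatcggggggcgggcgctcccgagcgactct
Mvk: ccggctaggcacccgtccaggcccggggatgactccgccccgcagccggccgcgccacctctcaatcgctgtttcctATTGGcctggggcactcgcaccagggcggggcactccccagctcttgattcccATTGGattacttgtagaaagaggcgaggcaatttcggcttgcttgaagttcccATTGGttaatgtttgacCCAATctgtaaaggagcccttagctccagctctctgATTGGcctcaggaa
Mvd: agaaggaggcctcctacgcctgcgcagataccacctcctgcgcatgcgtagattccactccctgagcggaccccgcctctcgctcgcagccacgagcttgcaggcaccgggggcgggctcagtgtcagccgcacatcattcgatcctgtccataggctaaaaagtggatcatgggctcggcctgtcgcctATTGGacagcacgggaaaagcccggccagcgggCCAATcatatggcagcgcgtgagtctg
Ebp: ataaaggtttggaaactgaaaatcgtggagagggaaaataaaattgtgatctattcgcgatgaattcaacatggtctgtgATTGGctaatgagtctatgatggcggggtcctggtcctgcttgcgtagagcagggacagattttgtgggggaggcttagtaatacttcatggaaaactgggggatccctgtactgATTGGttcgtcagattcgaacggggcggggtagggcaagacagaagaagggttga
Abca1: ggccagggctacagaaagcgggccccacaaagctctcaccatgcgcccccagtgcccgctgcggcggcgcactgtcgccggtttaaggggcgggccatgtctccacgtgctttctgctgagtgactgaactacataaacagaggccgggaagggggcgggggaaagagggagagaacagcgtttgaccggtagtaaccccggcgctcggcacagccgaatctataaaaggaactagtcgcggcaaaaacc

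On both strands of windows that ran from 250 bases before to 50 bases after the start, CCAAT was found in 61.8% of the 34 windows of these genes and in 37.4% of all 32851 windows. By gene, 14 of the 15 matched synthesis enzymes and 4 of the 5 SREBP sensing genes held it, as did both matched genes of the last role, Soat1 and Cyp46a1, and 0 of the 3 matched genes of the LXR and efflux arm. A gene counted if any of its windows held CCAAT, and some, such as Srebf1 and Insig2, had several windows. No share by gene was computed over all genes, so these counts have no background beside them. The short sterol element was found in Hmgcs1 alone, and in 1.24% of all windows. The classical full-length sterol regulatory element was in no window of these genes and in 0.0913% of all windows. An E-box, CACGTG, whose matches cannot overlap those of CCAAT, was found in 6 of the 25 genes, Abca1 and Insig1 among them, and in 20.6% of the 34 windows beside 7.15% of all windows. The windows of Scap overlap and hold the same E-box, which is thus counted in each. A match is a run of letters and not a shown binding site.

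Values are FPKM (fragments scaled by transcript length and library size) after TMM scaling, summed over a gene's isoforms. By an estimate from single-isoform genes the cultures held 17.6 to 23.9 M reads, and 1 read on a transcript of 1 kilobase was worth 0.0419 to 0.0567 FPKM. Among the length-weighted means in CONTROL-VEH, Hmgcs1 (HMG-CoA synthase) stood highest at 713 FPKM, followed by Fdps (farnesyl diphosphate synthase) at 413 FPKM. Nr1h3, the gene of LXRα, stood lowest at 0.319 FPKM, while Nr1h2, the gene of LXRβ, had 96 FPKM. Nr1h3 was 0.146 to 0.801 FPKM in the 16 cultures, under the filter of a mean of 0.5 FPKM, so 30 of the 31 genes were tested.

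Transcripts of cells other than neurons were present, and 3 cultures stood apart in ways that touch these genes. Gfap, the intermediate filament of astrocytes, was 87.4 FPKM in CONTROL-VEH 4, 85.9 FPKM in OGD-VEH 12 and 64.5 FPKM in OGD-TIA 16, against 5.09 to 26.2 FPKM in the other 13 cultures. The culture with the most Gfap was the highest-numbered of each group, with CONTROL-TIA 8 at 15.1 FPKM, and the labels do not say whether these 4 came from a common preparation. The summed level of 10 astrocyte markers was 769 to 1640 FPKM in CONTROL-VEH, 673 to 890 FPKM in CONTROL-TIA, 1030 to 2610 FPKM in OGD-VEH and 773 to 1980 FPKM in OGD-TIA. The sum of 10 neuronal markers was 2240 to 2920, 2330 to 2510, 1100 to 2100 and 1440 to 2360 FPKM in the same order, and that of 10 oligodendrocyte lineage markers 186 to 223, 170 to 204, 255 to 707 and 236 to 460 FPKM. The lineage list was not uniform. In OGD-VEH against CONTROL-VEH 4 of its 8 tested genes were upregulated and 1, Mbp, was downregulated, at a log2 fold change of -0.88 (limma padj = 0.0493). Over all genes the shares were 4.97% and 3.41%. The 3 cultures with the most Gfap were not alike in the other markers. CONTROL-VEH 4 had the highest neuronal sum of the 16 cultures, 2920 FPKM, while OGD-VEH 12 and OGD-TIA 16 had the lowest of their groups, 1100 and 1440 FPKM. The astrocyte sum of CONTROL-VEH 4, 1640 FPKM, was its group's highest, but its Aldh1l1, an astrocyte marker, was the lowest of all cultures, 60.6 FPKM. Aldh1l1 was 448 and 344 FPKM in OGD-VEH 12 and OGD-TIA 16. Cx3cr1 and Trem2 of microglia were at 0 in 12 cultures each, and Gjb6 of astrocytes was at 0 in 7. In bulk RNA, fewer cells of a type and less RNA per cell cannot be told apart, and the part of these markers in the results was not tested.

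As a description of each culture, the ratio of its FPKM to the CONTROL-VEH mean was taken for each of the 18 synthesis enzymes. The median log2 ratio was 0.16, 0.15, 0.12 and -0.50 in CONTROL-VEH 1 to 4, and 0.14, 0.03, 0.10 and -0.12 in CONTROL-TIA 5 to 8. It was -0.39, -0.82, -0.91 and -1.49 in OGD-VEH 9 to 12, and -0.35, -0.30, -0.35 and -1.32 in OGD-TIA 13 to 16. All the OGD cultures except OGD-VEH 9, OGD-TIA 13, 14 and 15 lay below every control culture. CONTROL-VEH 4 was the lowest of its group for 17 of the 18 enzymes, OGD-TIA 16 for 16, OGD-VEH 12 for 13 and CONTROL-TIA 8 for 13.

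**Figure D1:**
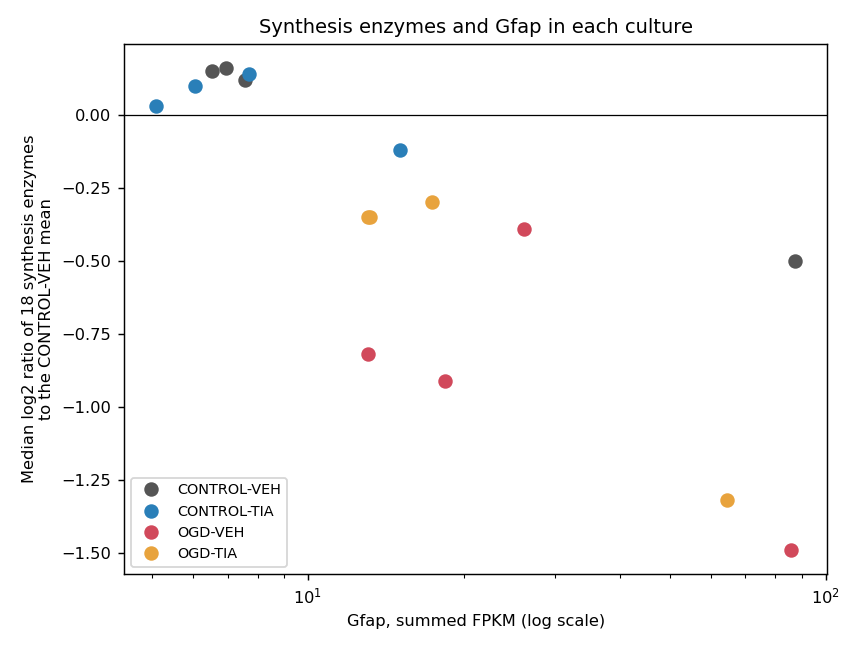
Median log2 ratio of the 18 synthesis enzymes to the CONTROL-VEH mean (y axis) against the summed FPKM of Gfap (x axis, log scale), 1 point per culture, coloured by group. The cultures with 64.5 to 87.4 FPKM of Gfap lay lowest in their groups, at -0.50, -1.49 and -1.32, and within the other cultures OGD-VEH 10 and 11 lay at -0.82 and -0.91 with 13.1 and 18.4 FPKM of Gfap.

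**Figure D2:**
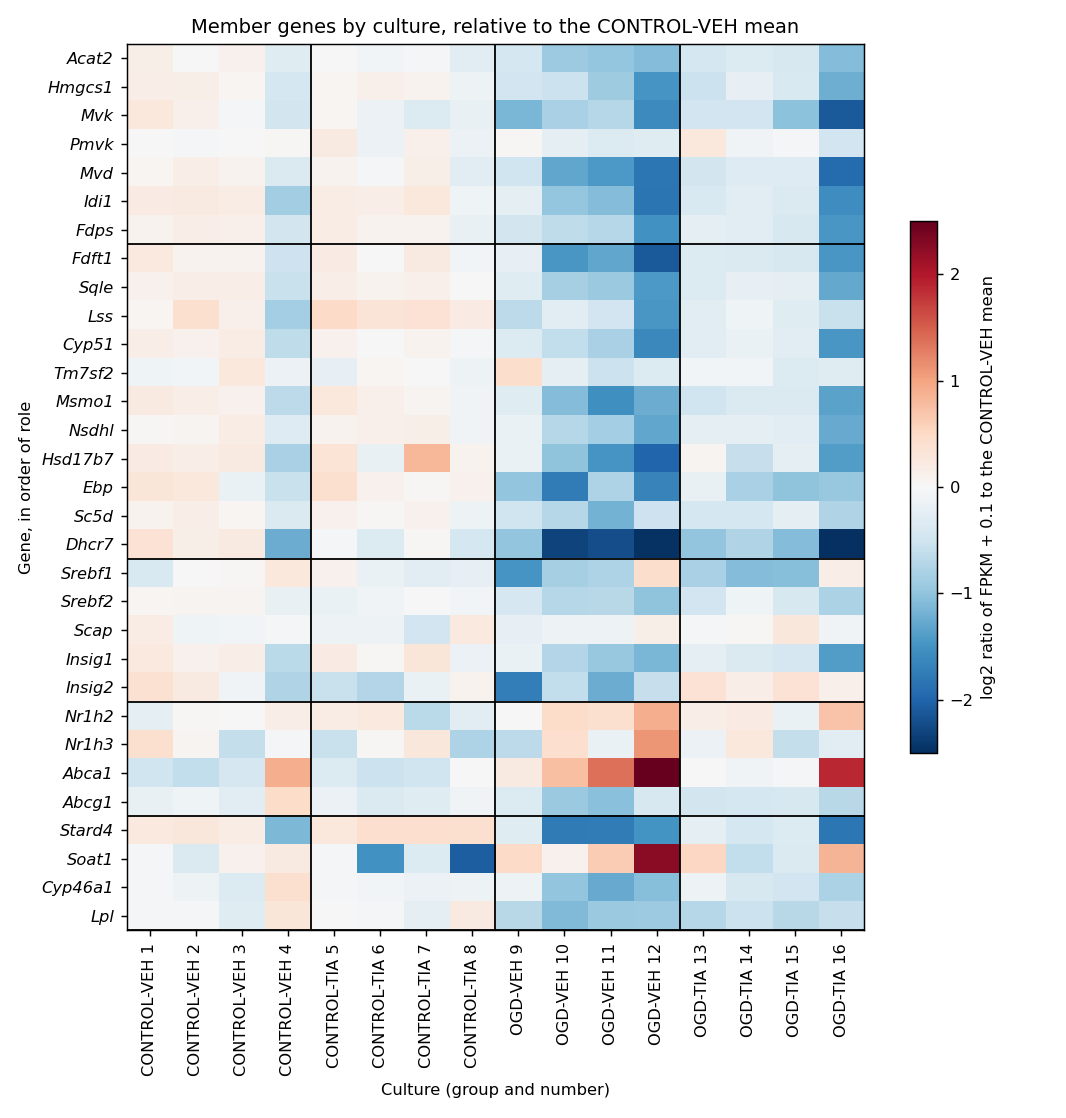
Log2 ratio of FPKM + 0.1 to the CONTROL-VEH mean for the 31 genes (rows, with lines between the 5 roles) in the 16 cultures (columns, with lines between groups); blue is lower and red is higher. Most synthesis rows were blue in OGD cultures, deepest in OGD-VEH 12 and OGD-TIA 16, where Abca1 reached 113 and 70.6 FPKM.

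In the vehicle arm all 18 synthesis enzymes had lower fitted values after OGD, and 6 of them passed the test. Of the 30 genes tested in OGD-VEH against CONTROL-VEH, 8 passed (limma padj at most 0.05) and all 8 were downregulated, while 8.39% of all 16405 genes tested passed and 3.41% were downregulated. Among them 4, Mvk, Mvd, Ebp and Dhcr7, met the study's definition of a DEG (that padj together with a fold of 1 or more on the log2 scale, up or down), against 1.66% of all genes that were DEGs in the lower direction. The log2 fold changes of the enzymes ran from -1.88 to -0.16, and the median over the 30 genes was -0.82 beside 0.10 over all genes. Over all genes 560 were lower and 816 higher, and under median-ratio scaling 664 and 642, where the count for these genes was 8 lower. The count depended on which single culture was left out. It was 0 without any 1 of CONTROL-VEH 1, 2, 3 or 4 or OGD-VEH 10, 11 or 12, and 23 without OGD-VEH 9. DEGs numbered 0 in the same 7 cases and 12 without OGD-VEH 9. Without the 4 cultures with the most Gfap in their groups the count was also 0, an omission chosen after the data had been seen. The fit across all genes moved with it, from 0.00608% of genes with a padj of at most 0.05 without CONTROL-VEH 3 to 30.4% without OGD-VEH 9. The folds of the 8 genes kept their sign in all 20 alternatives, at a limma padj of up to 0.123. They ran from -0.975 to -0.76 on the log2 scale for Acat2 and from -2.3 to -1.19 for Dhcr7.

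Dhcr7, which reduces 7-dehydrocholesterol to cholesterol, had the largest fold of the 8 on summed isoforms. It was 218, 187, 198 and 71.7 FPKM in CONTROL-VEH and 84.6, 33.6, 36.1 and 30.3 FPKM in OGD-VEH, and the groups overlapped through CONTROL-VEH 4 and OGD-VEH 9. The log2 fold change was -1.88 ± 0.43 (SE), with a limma padj of 0.0427. Of the summed level 38.77% was an isoform of 361 bases, and with isoforms weighted by length the fold was -1.19 (limma padj = 0.0303), smaller than the -1.25 of Mvd. It was 163, 134, 172 and 125 FPKM in CONTROL-TIA and 84.6, 99.5, 79 and 29.8 FPKM in OGD-TIA, where no OGD culture reached the lowest control, and the log2 fold change was -1.14 ± 0.352 (limma padj = 0.169).

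Mvd, the decarboxylase that yields isopentenyl diphosphate, was 40, 43.1, 41.1 and 30.1 FPKM in CONTROL-VEH and 27.4, 15.6, 14.1 and 10.9 FPKM in OGD-VEH. The groups did not overlap, and Mvd fell, with a log2 fold change of -1.25 ± 0.269 (limma padj = 0.0393). In the TIA arm it was 40.8, 37.9, 43 and 31.5 FPKM in CONTROL-TIA and 28.1, 30.8, 30.9 and 10.1 FPKM in OGD-TIA, with a log2 fold change of -0.73 ± 0.348 (limma padj = 0.285). OGD-TIA 16 was far the lowest, and the other 3 OGD-TIA cultures lay just under the lowest control.

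Mvk, mevalonate kinase, was 138, 125, 113 and 84.3 FPKM in CONTROL-VEH against 51.9, 65.7, 69.9 and 38.2 FPKM in OGD-VEH. No value overlapped, and the log2 fold change was -1.04 ± 0.224 (limma padj = 0.0389). With TIA, Mvk was 119, 104, 90.8 and 101 FPKM without OGD and 82.6, 82.4, 56.4 and 26.8 FPKM after it, a log2 fold change of -0.87 ± 0.337 (limma padj = 0.221). Its summed level rested for 73.9% on an isoform of 412 bases.

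Ebp, the sterol isomerase, was 24.3, 23.6, 17.4 and 13.4 FPKM in CONTROL-VEH and 9.93, 5.81, 11.6 and 6.08 FPKM in OGD-VEH. On summed isoforms these did not overlap, and the log2 fold change was -1.25 ± 0.284 (limma padj = 0.0423). Of the sum 56.95% was an isoform of 526 bases that was near 0 in CONTROL-VEH 3, OGD-VEH 10 and OGD-TIA 14. Weighted by length, OGD-VEH 9 at 13.5 FPKM lay above CONTROL-VEH 4 at 13.1 FPKM, and the fold was -0.80 (limma padj = 0.0307). In the TIA arm it was 25.9, 21.2, 20 and 21.3 FPKM in CONTROL-TIA and 17.3, 11.1, 9.81 and 10.2 FPKM in OGD-TIA, again without overlap, at a log2 fold change of -0.89 ± 0.188 (limma padj = 0.113).

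Acat2, the thiolase that joins acetyl-CoA units at the head of the route, was 96.7, 87.6, 94.4 and 71.2 FPKM in CONTROL-VEH and 64.7, 46.4, 44.8 and 41.3 FPKM in OGD-VEH. All OGD-VEH cultures lay under all controls, and the log2 fold change was -0.84 ± 0.167 (limma padj = 0.0349). It was 88.5, 83.3, 85.8 and 73.3 FPKM in CONTROL-TIA and 64.8, 69.4, 65.9 and 41.2 FPKM in OGD-TIA, a log2 fold change of -0.48 ± 0.168 (limma padj = 0.196). Sc5d, the sterol desaturase before Dhcr7, was 61.6, 64.8, 60.4 and 45.3 FPKM in CONTROL-VEH and 40.8, 35.1, 25.5 and 40.3 FPKM in OGD-VEH, without overlap on summed isoforms, at a log2 fold change of -0.72 ± 0.185 (limma padj = 0.049). Weighted by length, OGD-VEH 9 at 47 FPKM lay above CONTROL-VEH 4 at 41.5 FPKM, and the fold was -0.55 (limma padj = 0.0413). Its TIA arm gave 62.5, 58.9, 62.6 and 53.3 FPKM in CONTROL-TIA and 43, 42.5, 49.7 and 34.5 FPKM in OGD-TIA, a log2 fold change of -0.49 ± 0.121 (limma padj = 0.127).

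Srebf2 encodes SREBP-2, the regulator of most of these enzymes. It was 218, 221, 222 and 185 FPKM in CONTROL-VEH and 157, 129.7, 131 and 105 FPKM in OGD-VEH, with every OGD-VEH culture below every control, and fell, with a log2 fold change of -0.71 ± 0.133 (limma padj = 0.0342). With TIA it was 187, 199.8, 209 and 201 FPKM without OGD and 151, 195, 161 and 122 FPKM after it, where OGD-TIA 14 overlapped the controls on summed isoforms but not when weighted by length, and the log2 fold change was -0.36 ± 0.133 (limma padj = 0.207).

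Lpl, the lipase that releases fatty acids from lipoproteins, was 8.78, 8.82, 7.33 and 11.2 FPKM in CONTROL-VEH and 5.53, 4.16, 4.71 and 4.73 FPKM in OGD-VEH. It fell without overlap, with a log2 fold change of -0.89 ± 0.165 (limma padj = 0.0339). It was 9.12, 8.86, 7.7 and 10.6 FPKM in CONTROL-TIA and 5.48, 6.21, 5.57 and 5.98 FPKM in OGD-TIA, also without overlap, at a log2 fold change of -0.63 ± 0.117 (limma padj = 0.108). Lpl was highest in CONTROL-VEH 4 among the CONTROL-VEH cultures, where 17 of the 18 enzymes were lowest.

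**Figure D3:**
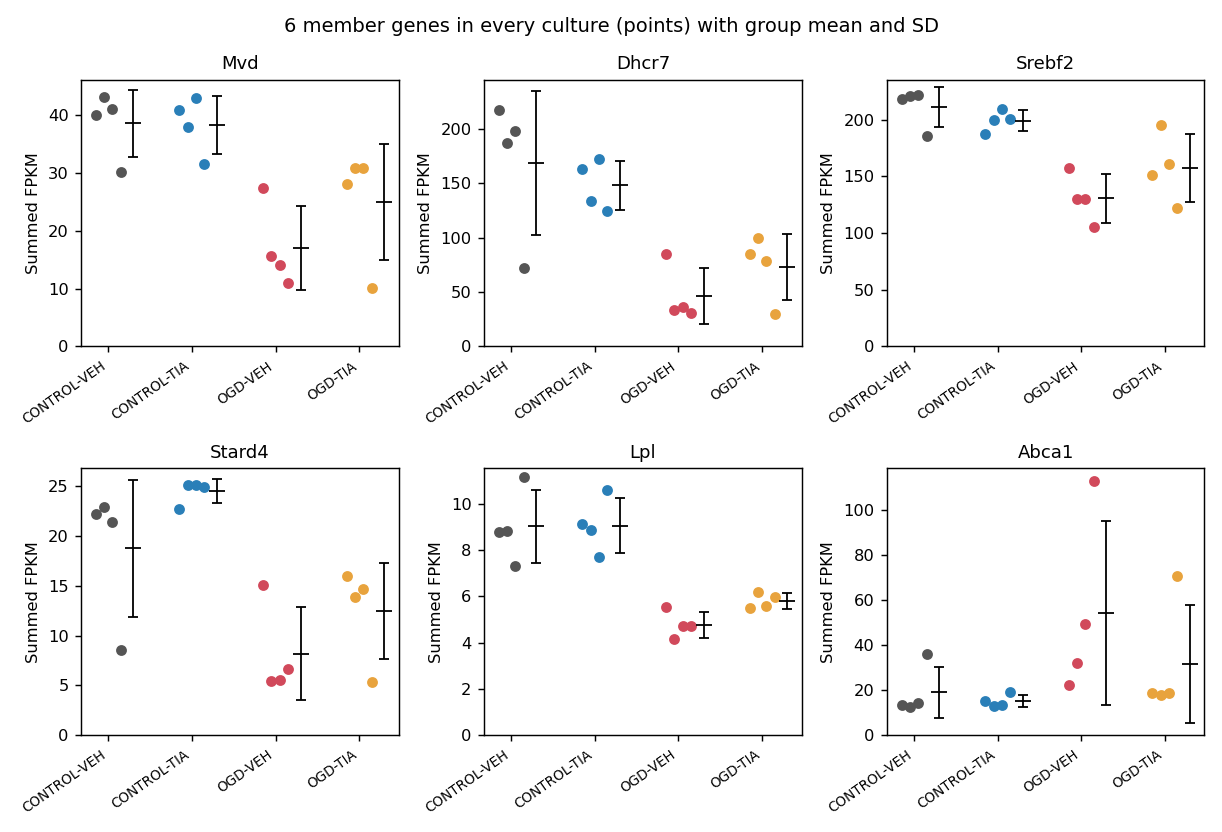
Summed FPKM (y axis, from 0) of Mvd, Dhcr7, Srebf2, Stard4, Lpl and Abca1 in each culture (points, by group on the x axis), with the group mean and SD (bars, n = 4). All 8 OGD cultures lay below all 8 control cultures for Lpl, whereas CONTROL-VEH 4 lay among the OGD cultures for Dhcr7 and Stard4, and OGD-VEH 12 stood at 113 FPKM for Abca1.

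With TIA, none of the 30 genes passed in OGD-TIA against CONTROL-TIA (limma padj at most 0.05), and neither did any of the 16299 genes tested (0%). The study, with DESeq2, reported DEGs in this comparison, so the count of 0 belongs to this fit and does not show that no gene changed. Between the arms 28 of the 30 genes had folds of the same sign, and with TIA 25 were below 0, with a median log2 fold change of -0.60 beside 0.04 over all genes, and 19 were lower in every OGD-TIA than in every CONTROL-TIA culture, a separation that 6.69% of all genes showed. At an unadjusted p under 0.05 19 were lower and 1 higher, beside 7.9% and 11.6% of all genes. With isoforms weighted by length and without the culture of each group that had the most Gfap, 17 were downregulated in this arm, beside 1.37% of all genes, whereas length weighting alone gave 1 of the 30 (1.65% of all genes) and leaving out those cultures alone gave 0 (0%). This omission was chosen after the data had been seen. The same combined setting gave 1 gene in OGD-VEH against CONTROL-VEH (0.0245% of all genes). In OGD-VEH against CONTROL-VEH, 9 of the 30 genes separated in the lower direction, beside 9.92% of all genes.

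**Figure D4:**
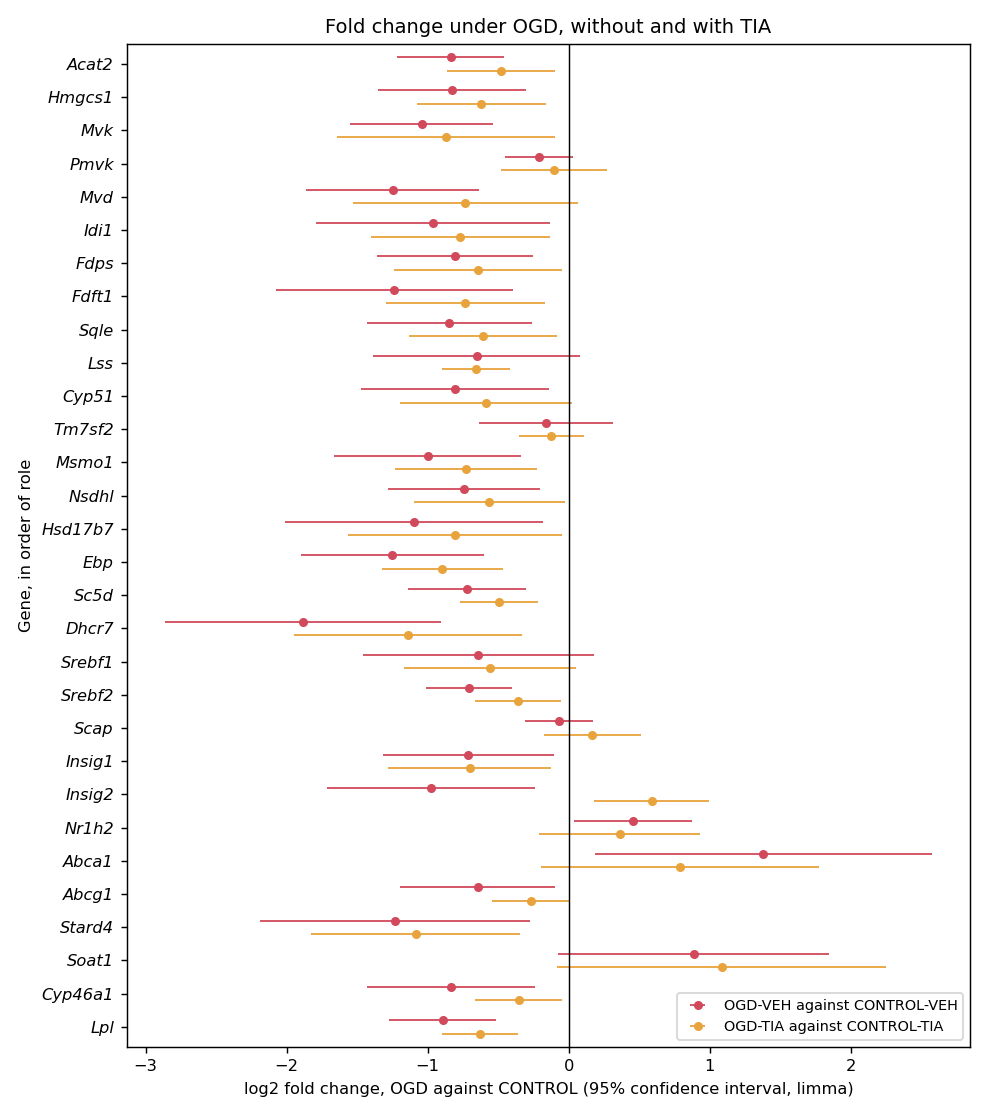
Log2 fold change (x axis) with its 95% confidence interval from limma for the 30 genes tested (y axis, by role), OGD-VEH against CONTROL-VEH in red and OGD-TIA against CONTROL-TIA in yellow. All 18 enzymes lay below 0 in both arms, and Insig2 lay on opposite sides, at -0.98 and 0.59.

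Over both arms, with the 16 cultures in 1 fit and the OGD groups set against the CONTROL groups, 24 of the 30 genes passed at a limma padj of at most 0.05, beside 32.4% of all genes. This comparison shares its cultures with the pairwise ones. Of the 24, 22 were downregulated, beside 13.7% of all 16370 genes, and 2, Abca1 and Soat1, were upregulated, beside 18.8%. Over all genes 2237 were lower and 3075 higher, and under median-ratio scaling 2737 and 2383, where 23 of these genes were lower and 1, Abca1, higher. Between 22 and 26 genes passed when any 1 culture was left out, beside 25.8% to 40.8% of all genes. Without the 4 cultures with the most Gfap 22 passed, beside 20.3% of all genes. DEGs numbered 4: Dhcr7, Stard4 and Ebp lower, and Abca1 higher, beside 4.78% of all genes. With isoforms weighted by length Stard4 alone was a DEG, and the log2 fold changes of Dhcr7 and Ebp were -0.97 (limma padj = 0.00241) and -0.69 (limma padj = 0.00114). The DEG count was less stable. It was 2 without OGD-TIA 16, 6 without CONTROL-TIA 8, and 8 without CONTROL-VEH 4, OGD-VEH 9 or OGD-TIA 13, 14 or 15.

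Of the 7 mevalonate genes 6 were downregulated over both arms, beside 13.7% of all genes. Log2 fold changes ran from -0.99 (Mvd, limma padj = 0.00747) through -0.96 (Mvk, padj = 0.006) and -0.86 (Idi1, the isomerase, padj = 0.0168) to -0.66 (Acat2, padj = 0.00254). Hmgcs1, at 714 ± 126 (SD), 735 ± 58, 411 ± 116 and 493 ± 135 FPKM in the controls with vehicle and with TIA and in the OGD cultures with vehicle and with TIA (n = 4 each), fell, with a log2 fold change of -0.72 ± 0.162 (limma padj = 0.00594). Fdps, at 416 ± 77.6 (SD), 431 ± 46.2, 242 ± 68.4 and 290 ± 93.6 FPKM in the same order, fell likewise, at -0.72 ± 0.19 (limma padj = 0.0119). The exception was Pmvk, phosphomevalonate kinase, at -0.16 ± 0.0978 (limma padj = 0.229), with an interval of -0.37 to 0.05.

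Of the 11 squalene and sterol genes 10 were downregulated over both arms, beside 13.7% of all genes. Fdft1, squalene synthase, was 161, 145, 144 and 94.4 FPKM in CONTROL-VEH and 118, 49.3, 55.1 and 31.7 FPKM in OGD-VEH, and 157, 137, 158 and 129 FPKM in CONTROL-TIA and 107, 105, 103 and 49.4 FPKM in OGD-TIA. CONTROL-VEH 4 lay among the OGD cultures, below OGD-VEH 9 and OGD-TIA 13, 14 and 15, and the fold over both arms was -0.98 ± 0.237 on the log2 scale (limma padj = 0.00829). Sqle, squalene epoxidase, fell, with a log2 fold change of -0.73 ± 0.183 (limma padj = 0.01) and Lss, which closes the rings to lanosterol, one of -0.66 ± 0.181 (limma padj = 0.0152). Protein-coding isoforms made up only 2.65% of the summed level of Lss. Its largest isoform, at 47.61%, was a noncoding processed transcript of 352 bases. The demethylation enzymes followed, with Cyp51 at -0.69 (limma padj = 0.0223), Msmo1 at -0.86 (padj = 0.00604), Nsdhl at -0.65 (padj = 0.013) and Hsd17b7 at -0.95 (padj = 0.0191). The protein-coding share of the summed level was 35.78% for Cyp51 and 47.91% for Msmo1. Ebp was at -1.07 (padj = 0.00168), Sc5d at -0.61 (padj = 0.00257) and Dhcr7 at -1.51 (padj = 0.00347). Tm7sf2, a sterol reductase, did not pass, at -0.14 ± 0.12 (limma padj = 0.379, interval -0.40 to 0.11). Of its 15 isoforms, 1 belongs to the neighbouring Vps51 in GENCODE, and without it the counts were the same.

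Of the 5 sensing genes 2 were downregulated over both arms, beside 13.7% of all genes. These were Srebf2 at -0.53 ± 0.0956 (limma padj = 0.00221) and Insig1 at -0.71 ± 0.194 (limma padj = 0.0149). Insig1, itself an SREBP target, was 72.6, 65.9, 68.4 and 38.2 FPKM in CONTROL-VEH, 70.8, 62.6, 75.8 and 55.4 FPKM in CONTROL-TIA, 54.3, 36.6, 31.6 and 27.7 FPKM in OGD-VEH and 52.4, 47.7, 45.8 and 23.1 FPKM in OGD-TIA. Its log2 fold change was -0.71 without TIA and -0.70 with it, and the interval of the difference was -0.82 to 0.84. Srebf1, which encodes SREBP-1 and leans to fatty acid genes, was at -0.60 ± 0.24 (limma padj = 0.0687) and was highest in OGD-VEH 12 at 223 FPKM and CONTROL-VEH 4 at 197 FPKM, where Srebf2 was lowest in its group. Scap was at 0.05 ± 0.0938 (limma padj = 0.717, interval -0.15 to 0.25). Protein-coding isoforms made up 8.29% of the summed level of Srebf1 and 12.09% of that of Scap. The largest isoform of Srebf1 was a noncoding processed transcript of 367 bases (36.45%), and that of Scap a retained intron of 358 bases (56.17%).

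Insig2, the second INSIG, lay on opposite sides of 0 in the 2 arms, as did Scap with folds near 0. It was 73.1, 65.4, 53.2 and 33.3 FPKM in CONTROL-VEH, 38.3, 33.8, 50.3 and 59.8 FPKM in CONTROL-TIA, 16.9, 36.6, 23.8 and 37.9 FPKM in OGD-VEH and 72.7, 62.7, 71.8 and 61.1 FPKM in OGD-TIA. Every OGD-TIA culture lay above every OGD-VEH culture, which 1.29% of all 16407 genes showed in that direction, at a log2 fold change of 1.29 ± 0.253 (limma padj = 0.552). The interaction, the OGD fold with TIA minus that without, was 1.57 ± 0.392 (limma padj = 0.723), so it did not pass over all genes. Its sum rested for 35.89% on an isoform of 359 bases and 23.4% on a retained intron of 465 bases, and the estimates of these short isoforms varied from culture to culture. With isoforms weighted by length Insig2 was 61.7, 54.3, 52.2 and 38.6 FPKM in CONTROL-VEH, 48, 44.2, 53.5 and 50.6 FPKM in CONTROL-TIA, 36.2, 41.8, 39.3 and 42.5 FPKM in OGD-VEH and 61.7, 56.1, 57.9 and 52.3 FPKM in OGD-TIA. OGD-TIA stayed above OGD-VEH in every culture, and the difference shrank to 0.51 ± 0.0804 on the log2 scale (limma padj = 0.47).

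**Figure D5:**
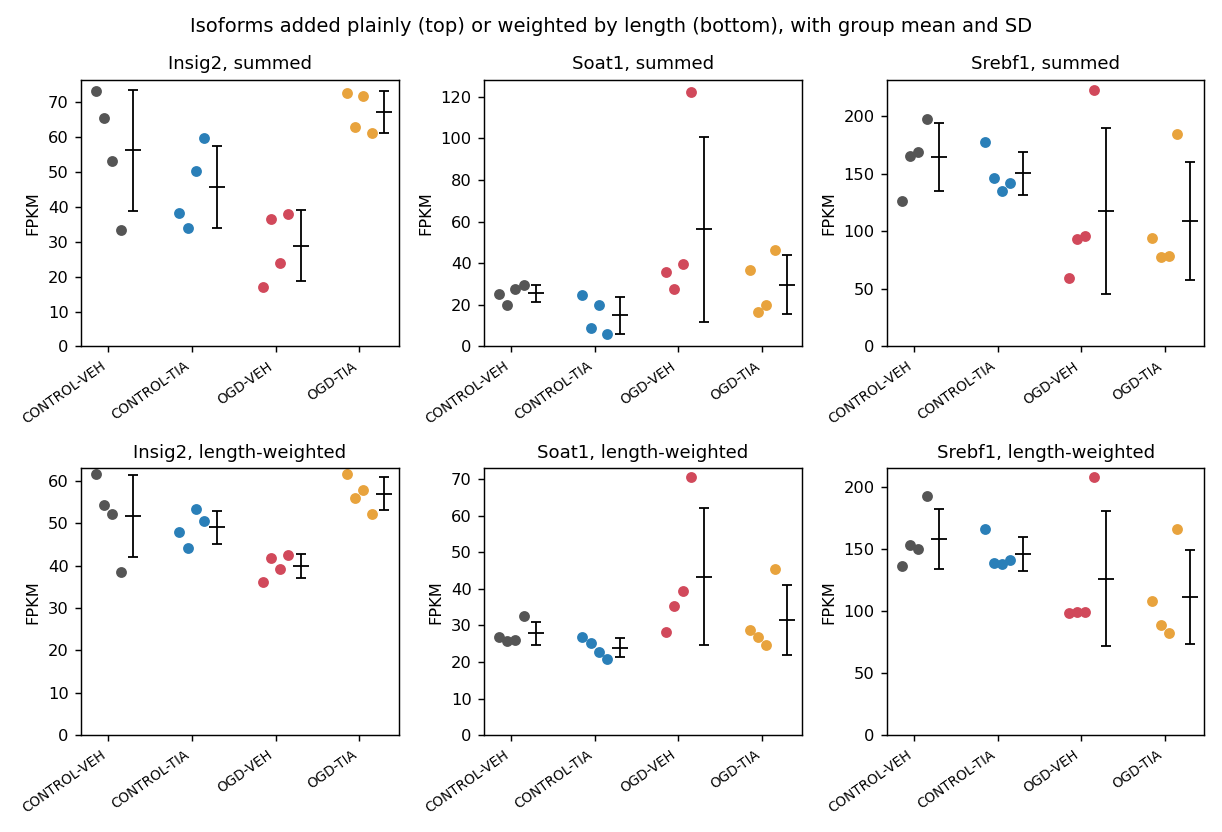
FPKM (y axis, from 0) of Insig2, Soat1 and Srebf1 in each culture (points, by group on the x axis) with isoforms summed (top row) or weighted by length (bottom row), and the group mean and SD (n = 4). For Insig2 the 4 OGD-TIA cultures lay above the 4 OGD-VEH cultures on both scales, at 52.3 to 61.7 against 36.2 to 42.5 FPKM when weighted.

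In the LXR and efflux arm, Abca1, the pump that loads cholesterol on apolipoproteins, was upregulated over both arms at a log2 fold change of 1.08 ± 0.364 (limma padj = 0.0347). It was 13.4, 12.4, 14.3 and 36.1 FPKM in CONTROL-VEH, 15, 13, 13.4 and 19 FPKM in CONTROL-TIA, 22.4, 32.1, 49.5 and 113 FPKM in OGD-VEH and 18.9, 17.9, 18.7 and 70.6 FPKM in OGD-TIA. The highest values of CONTROL-VEH, OGD-VEH and OGD-TIA came from the 3 cultures with the most Gfap, and OGD overlapped control only through CONTROL-VEH 4 and CONTROL-TIA 8. The call was lost in 10 of 27 alternatives, at a limma padj of up to 0.0685. Of these, 1 used no filter on low values and 9 left out a single culture (CONTROL-VEH 1, 2 or 3, CONTROL-TIA 5, 6 or 7, OGD-VEH 11 or 12 or OGD-TIA 16), at a padj of 0.052 to 0.067. Without the culture of each group with the most Gfap the log2 fold change was 0.86 (limma padj = 0.00969), and 0.64 with length weighting as well (limma padj = 0.00728). Abcg1, its partner pump, was downregulated at -0.46 ± 0.133 (limma padj = 0.0191), with 4.18, 4.43, 3.92 and 6.6 FPKM in CONTROL-VEH, 4.29, 3.73, 3.86 and 4.47 FPKM in CONTROL-TIA, 3.76, 2.46, 2.27 and 3.62 FPKM in OGD-VEH and 3.45, 3.52, 3.62 and 2.93 FPKM in OGD-TIA. This call was lost, at a limma padj of 0.0538, without the culture of each group with the most Gfap. Nr1h2 was at 0.41 ± 0.163 (limma padj = 0.0665).

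Among the last 4 genes, Stard4, a carrier of cholesterol between membranes and an SREBP target, was downregulated over both arms at -1.16 ± 0.283 (limma padj = 0.0088). It was 22.3, 22.9, 21.4 and 8.52 FPKM in CONTROL-VEH, 22.7, 25.1, 25.2 and 25 FPKM in CONTROL-TIA, 15.1, 5.42, 5.5 and 6.6 FPKM in OGD-VEH and 16, 13.8, 14.7 and 5.31 FPKM in OGD-TIA. CONTROL-VEH 4 sat among the OGD cultures, and without it the OGD and control values did not overlap. Cyp46a1, the neuronal enzyme that turns cholesterol into 24-hydroxycholesterol for removal, was downregulated at -0.59 ± 0.153 (limma padj = 0.0112), with 50, 46.5, 39.9 and 66.9 FPKM in CONTROL-VEH, 49.3, 48.4, 46.2 and 46.5 FPKM in CONTROL-TIA, 46.2, 25.6, 21.3 and 24.2 FPKM in OGD-VEH and 46.3, 38.7, 36.4 and 29.3 FPKM in OGD-TIA. Without the culture of each group with the most Gfap its fold was -0.44 (limma padj = 0.0876). Lpl was at -0.76 ± 0.0968 (limma padj = 0.000678) and was one of 3 genes, with Acat2 and Mvk, whose OGD cultures all lay below all controls, a separation that 2.41% of all genes showed. With isoforms weighted by length Lpl alone of the 3 kept it.

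Soat1, which esterifies cholesterol for storage, was upregulated at 0.99 ± 0.354 (limma padj = 0.0454). It was 25, 19.8, 27.5 and 29.7 FPKM in CONTROL-VEH, 24.8, 8.82, 20.1 and 6.05 FPKM in CONTROL-TIA, 35.6, 27.5, 39.6 and 122 FPKM in OGD-VEH and 36.5, 16.6, 19.7 and 46.2 FPKM in OGD-TIA. The groups overlapped widely, 54.79% of the sum was a retained intron of 452 bases, and the call was lost in 14 of 27 alternatives, 10 of which left out a single culture (CONTROL-VEH 1, 2, 3 or 4, CONTROL-TIA 6 or 8, OGD-VEH 11 or 12 or OGD-TIA 13 or 16), at a limma padj of 0.0537 to 0.0939. Without the culture of each group with the most Gfap the fold was 0.49 (limma padj = 0.218). Weighted by length, Soat1 was 26.9, 25.7, 26.1 and 32.6 FPKM in CONTROL-VEH, 26.9, 25.2, 22.7 and 20.9 FPKM in CONTROL-TIA, 28.2, 35.2, 39.4 and 70.4 FPKM in OGD-VEH and 28.6, 26.7, 24.6 and 45.5 FPKM in OGD-TIA, and its fold was 0.45 (limma padj = 0.0383).

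TIA in unstressed cultures left no gene of the 30 past the threshold (limma padj at most 0.05, 0% of 16222 genes tested), and at an unadjusted p under 0.05 the count was also 0, beside 3.86% of all genes. The median log2 fold change of CONTROL-TIA against CONTROL-VEH was 0.01. Soat1 was at -0.97 (interval -1.95 to 0.01, limma padj = 0.999) and, weighted by length, at -0.22. The interval was -0.85 to 0.70 for Dhcr7 and -0.34 to 0.32 for Mvd, and differences inside them were not detectable here.

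After OGD, the fitted group value was higher with TIA than with vehicle for 17 of the 18 enzymes, the exception being Tm7sf2 at -0.03. The cultures of the 2 groups overlapped for all 18, and over all genes only 1.29% separated in the higher and 2.5% in the lower direction. None of the 30 genes passed in OGD-TIA against OGD-VEH (limma padj at most 0.05, 0% of 16407 genes), and at an unadjusted p under 0.05 Insig2 alone was higher, beside 2.86% of all genes. Under array quality weights 4 passed, all higher, beside 9.2% of all genes (3.42% higher). The median log2 fold change was 0.28 beside -0.05 over all genes. The largest among the enzymes was Dhcr7 at 0.67 ± 0.45 (interval -0.36 to 1.70), where OGD-TIA 16 at 29.8 FPKM lay below OGD-VEH 12 at 30.3 FPKM. In the interaction none of the 30 genes passed (0% of 16370 genes), so the folds of the 2 arms were not shown to differ, and Insig2 alone, on the higher side, had an unadjusted p under 0.05, beside 2.68% of all genes.

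The lists of neighbouring routes gave mixed counts. Of 14 fatty acid synthesis genes, Acly and Fasn were downregulated in OGD-VEH against CONTROL-VEH, where 3.41% of all genes were, at log2 fold changes of -0.56 (limma padj = 0.0486) and -0.68 (limma padj = 0.0357). Over both arms 6 of the 14 were downregulated, beside 13.7% of all genes, and none upregulated, led by Thrsp at -1.05 (limma padj = 0.00597), Pnpla3 at -0.80 (limma padj = 0.0205), Acaca at -0.55 (limma padj = 0.00538) and Fasn at -0.52 (limma padj = 0.00259). Of 12 genes of the isoprenoid branches, which draw on farnesyl diphosphate, none was downregulated and 3 were upregulated over both arms, beside 13.7% and 18.8% of all genes, Pggt1b at 0.37 (limma padj = 0.0175), Rabggtb at 0.33 (limma padj = 0.00982) and Fnta at 0.19 (limma padj = 0.0172). Of 45 tested genes of a wider cholesterol list, 11 were downregulated and 8 upregulated over both arms, beside the same shares of all genes, with a median log2 fold change of 0.00 beside 0.08 over all genes. Gramd1b, a sterol carrier at membrane contacts, and Osbp2, an oxysterol-binding protein, were among those that fell, at -1.02 (limma padj = 0.00152) and -1.15 (limma padj = 0.0127). In OGD-VEH against CONTROL-VEH 2 of the 45 were downregulated, Gramd1b at -1.38 (limma padj = 0.0139) among them, and 2 upregulated, beside 3.41% and 4.97% of all genes, the transcription factor Sp1 at 1.07 (limma padj = 0.0285) and the sterol carrier Stard3 at 0.67 (limma padj = 0.0418).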

How the data were processed

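The authors' deposited table held FPKM per isoform after TMM scaling. Libraries were stranded mRNA read as single ends of 50 bases, mapped with STAR to GRCm38, checked with FastQC and estimated per isoform with eXpress. Of 135276 lines, 74 without an identifier were left out. Isoforms of a symbol were summed, and log2(FPKM + 0.1) was fitted with limma 3.58.1 (R 4.3.3; trended empirical Bayes) for genes averaging 0.5 FPKM or more over the cultures in the fit, with Benjamini-Hochberg adjustment over all genes tested. A fold on this scale understates the change of low genes. DESeq2, which the authors used, needs read counts and was left out. With it the study reported more DEGs than this fit, both in OGD-VEH against CONTROL-VEH and in OGD-TIA against CONTROL-TIA. In the length-weighted alternative, isoform FPKM were weighted by length, which brings the sum nearer to read number. Exact permutation tests of 4 against 4 cultures reach their smallest p, 0.0286, whenever groups do not overlap, so they are not given beside separations.

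Depth was estimated from the FPKM of 12220 single-isoform genes, so no counting intervals were computed. Groups came from the labels, in which vehicle controls are also called untreated. The members and gene lists were chosen with earlier results of these data known. All 31 members are accounted for, those with a padj of at most 0.05 in a comparison are described with values, and of the other lists up to 4 genes a list and comparison by fold were to be named. Some of those listed genes are counted here and not reported by name.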

Additional observations from a re-analysis of the deposited data

Results flagged for a closer look

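In 124 groups of 4 values (31 genes in 4 groups), 22 had 1 culture whose gap to the next, divided by the range, exceeded Dixon's 95% critical value. Chance flags about 1 in 20 groups, and the genes are not independent. OGD-TIA 16 gave 9 of them. It was lowest for Acat2 (41.2 FPKM, ratio 0.835), Mvd (10.1 FPKM, 0.865), Idi1 (22.8 FPKM, 0.894), Fdft1 (49.4 FPKM, 0.938), Sqle (45.6 FPKM, 0.830), Cyp51 (57.0 FPKM, 0.883) and Nsdhl (13.2 FPKM, 0.946), and highest for Srebf1 (185 FPKM, 0.852) and Abca1 (70.6 FPKM, 0.982). CONTROL-VEH 4 gave 8. It was lowest for Idi1 (36.5 FPKM, 0.942), Fdps (300.5 FPKM, 0.835), Sqle (75.2 FPKM, 0.880), Cyp51 (101 FPKM, 0.881), Hsd17b7 (8.96 FPKM, 0.923), Srebf2 (185 FPKM, 0.884) and Stard4 (8.52 FPKM, 0.896), and highest for Abca1 (36.1 FPKM, 0.922). OGD-VEH 9 was highest for Dhcr7 (84.6 FPKM, 0.894) and Stard4 (15.1 FPKM, 0.879), and OGD-VEH 12 for Soat1 (122 FPKM, 0.873). CONTROL-VEH 3 was highest for Tm7sf2 (87.4 FPKM, 0.831) and CONTROL-TIA 5 lowest for Stard4 (22.7 FPKM, 0.918). Gfap was 64.5 FPKM in OGD-TIA 16 and 87.4 FPKM in CONTROL-VEH 4, and its part in these values was not tested.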

How the results depend on the processing

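Over both arms, 25.8% to 40.8% of all genes passed when 1 culture was left out. The 24 genes called there ranged from 22 to 26, and no call changed direction in any alternative run. Their 4 DEGs ranged from 2 to 8, and were 8 under median-ratio scaling and 1 with isoforms weighted by length, with or without the cultures with the most Gfap. The 8 genes of OGD-VEH against CONTROL-VEH ranged from 0 to 23 (DEGs 0 to 12) when 1 culture was left out. They were 0 without a filter on low values (0.144% of all genes passed), 26 with array quality weights (38.7%), 15 with isoforms weighted by length (24.8%), 19 with all 16 cultures in 1 fit (28.1%), 0 without the cultures with the most Gfap (0.0122%) and 1 with length weighting as well (0.0245%). The 4 DEGs became 0, 10, 7, 0 and 0 under the same settings except length weighting alone. In OGD-TIA against CONTROL-TIA the count of 0 ranged from 0 to 1 (DEGs 0) when 1 culture was left out, and was 2 with array quality weights (1.15% of all genes), 1 with length weighting (1.65%) and 17 with length weighting without the cultures with the most Gfap (3.01%). In OGD-TIA against OGD-VEH it was 4 (DEGs 3) with array quality weights (9.2% of all genes) and 0 when any 1 culture was left out. It stayed 0 in CONTROL-TIA against CONTROL-VEH and in the interaction. Pseudocounts of 1 and 0.01, a minimum mean of 2 FPKM and robust empirical Bayes were also run. The causes were not tested.

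No paired analysis was possible because no culture number occurs in more than 1 group and the labels name no shared preparation. Whether cultures in the same place of their groups belong together was not tested. The array weights were estimated from the same cultures they weigh.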
